A study of Mus musculus with 3 samples.

Results

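The Rab GTPases of mouse were described in chromatin RNA of bone marrow-derived macrophages. The genes were taken by name: every protein-coding gene whose symbol is Rab, a number and at most a letter from a to d. The rule found 59 genes of 22028 protein-coding genes and 55536 annotated genes, and it used no measured value. The genes are placed below by the compartment they are best known for.

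The RNA was isolated from the chromatin of primary macrophages of strain C57BL/6J, freed of ribosomal RNA and sequenced as total RNA. Chromatin RNA is rich in transcripts still being made or spliced, so its levels are not those of mature cytoplasmic mRNA. All cells had received Lipid A, the membrane anchor of lipopolysaccharide and a ligand of TLR4, at 100 ng/ml for 12 h. They were then kept without it for 12 h after washing and given 100 ng/ml again for 20 min. No genetic change is named in the labels, and the age and sex of the mice are not stated. This was the single group, with 3 libraries called biological replicates 1, 2 and 3. Cells with no Lipid A, or with 1 exposure, were not analysed here, so no value below is an effect of Lipid A. The 3 libraries carry the same donor entry, so the spread between them may in part be technical.

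Rab proteins are small GTPases that mark membranes. Exchange factors (GEFs) load them with GTP on a membrane, activating proteins (GAPs) end the active state, and GDP dissociation inhibitors (GDIs) return the prenylated protein to the cytosol. In macrophages, Rab5 proteins act on the new phagosome, Rab7 acts on its later fusion with lysosomes, and recycling Rabs send receptors such as TLR4 to the surface or to phagosomes.

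In replicates 1, 2 and 3 the expected counts added up to 13953780, 24222661 and 16571228. Sequences other than genes, almost all of them the phiX control, took 2.46, 0.484 and 0.327% of these counts. Input RNA was 1000, 250 and 500 ng in that order, per the labels, so input, depth and replicate cannot be told apart. All 8 macrophage markers were at 1 TPM or more (a transcript level scaled for length within each library), with summed levels of 1061, 862 and 953 TPM. Of 26 markers of other blood, stromal and endothelial cells, 2 reached a mean of 1 TPM, Zbtb46 at 1.41 and Pecam1 at 1.62 TPM. In such bulk samples, fewer cells of a type and less RNA per cell cannot be told apart.

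DNA before the transcription start is shown for 5 Rab genes that the results below turn on, from RefSeq on build GRCm38.p6, 5′ to 3′ on the gene's own strand. Rab14 and Rab8b were among the most abundant members. Rab32 varied most between libraries among the 35 Rab genes with enough counts, a mean of 50. Rab5a and Rab21, a pair of early endosomal genes, held a CLEAR element, the site named for genes of lysosome function. Capitals mark matches to CLEAR (GTCAC followed by GTGAC), the E-box at its core (CACGTG), the CCAAT box (CCAAT, or ATTGG on the other strand) and the GC box (GGGCGG, or CCGCCC on the other strand), and for Rab21 the CLEAR match alone. Rab14, Rab8b and Rab5a are shown over 250 bases. Rab32 is shown only where no annotated exon reaches in, and Rab21 only around the match. They lie at chr2:35201121-35201370 (minus strand, Rab14), chr9:66919706-66919955 (minus, Rab8b), chr10:10558266-10558457 (minus, Rab32), chr17:53478984-53479233 (plus, Rab5a) and chr10:115315604-115315633 (minus, Rab21).
Rab14: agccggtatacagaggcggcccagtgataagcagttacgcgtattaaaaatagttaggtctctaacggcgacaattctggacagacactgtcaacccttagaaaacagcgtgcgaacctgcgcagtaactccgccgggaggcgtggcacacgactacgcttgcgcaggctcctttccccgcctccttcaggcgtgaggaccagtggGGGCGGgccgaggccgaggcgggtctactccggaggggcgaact
Rab8b: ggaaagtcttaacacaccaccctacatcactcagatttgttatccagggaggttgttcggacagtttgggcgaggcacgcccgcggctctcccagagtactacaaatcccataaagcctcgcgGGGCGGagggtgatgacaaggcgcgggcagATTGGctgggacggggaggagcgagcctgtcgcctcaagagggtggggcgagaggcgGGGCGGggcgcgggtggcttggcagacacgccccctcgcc
Rab32: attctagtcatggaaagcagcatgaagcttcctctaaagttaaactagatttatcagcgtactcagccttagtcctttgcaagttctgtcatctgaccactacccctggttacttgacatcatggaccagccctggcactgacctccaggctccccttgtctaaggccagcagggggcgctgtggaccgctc
Rab5a: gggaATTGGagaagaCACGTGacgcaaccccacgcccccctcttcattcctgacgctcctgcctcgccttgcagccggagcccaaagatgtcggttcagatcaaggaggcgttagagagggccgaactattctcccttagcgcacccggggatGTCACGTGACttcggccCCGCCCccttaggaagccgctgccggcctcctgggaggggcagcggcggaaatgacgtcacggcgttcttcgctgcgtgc
Rab21: gcccaccgcgGTCACGTGACgaggggtgtg
The Rab14 stretch held 1 GC box, and the Rab8b stretch held 2 GC boxes and 1 CCAAT box on the other strand. The Rab5a stretch held a CLEAR element, a further E-box, a CCAAT box and a GC box. None of these motifs was in the Rab32 stretch, which also had few CpG sites: 5 in its full 250 bases, against 23 for Rab14, 20 for Rab8b, 23 for Rab5a and 24 for Rab21. RefSeq promoters were matched for 48 of the 59 genes and gave 60 starts. Both strands were searched, and each CLEAR match also counts as an E-box. CLEAR was in 4.65% of the 43 promoters of Rab genes at 1 TPM or more in every library, which is those of Rab5a and Rab21, and in 0.333% of 20150 promoters of all protein-coding genes. The E-box alone was in 9.30% against 6.78%, the GC box in 69.8% against 44.1%, and the CCAAT box in 46.5% against 35%. The TATA box (TATAAA) was in 2.33% against 11.2%. An interferon-stimulated response element (GAAA, any 2 bases and GAAA) was in 2.33% against 3.02%, and the NF-kB consensus in 4.65% against 8.03%. The median was 18 CpG sites in 250 bases for the promoters of these Rab genes, 7 for the 17 promoters of the other Rab genes and 10 for all. In the 17 promoters of the other Rab genes, the GC box was in 58.8%, the CCAAT box in 23.5% and the TATA box in 17.6%. The promoters of all protein-coding genes were not limited to genes at 1 TPM or more. The part of that filter in these differences was not tested. A match is a run of letters, and binding was not measured here.

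The Rab family was broadly present in macrophage chromatin RNA, with Rab14 above the rest in the gene table that the levels below come from. The second deposited table changed part of the order: Rab14 was at 138 and Rab7b at 111 TPM there, and both were nearly equal in replicate 3, at 121 and 119 TPM. Of the 59 genes, 40 (67.8%) were at 1 TPM or more in every library, against 45.2% of all protein-coding genes. At a mean of 10 TPM or more stood 21 (35.6%), against 25%. The median of mean TPM was 6.05 for the Rab genes and 0.677 for all protein-coding genes, and it was 6.59, 4.38 and 6.99 TPM in replicates 1, 2 and 3. Among genes at a mean of 1 TPM or more, the Rab median minus the median of all such genes was -0.19 in log2(TPM + 1), the reverse of the difference of 2.08 over all genes. TPM were lowest in replicate 2 for 70.7% of protein-coding genes with a mean of 50 counts or more, and most Rab values below share that order. At 0 counts in every library were 3 Rab genes (5.08%), Rab17, Rab3c and Rab9b, against 30.3% of protein-coding genes. A gene at 0 could still have 3 counts, which is 0.220, 0.124 and 0.182 CPM (counts scaled to library size) in replicates 1, 2 and 3, for counting error only.

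**Figure D1:**
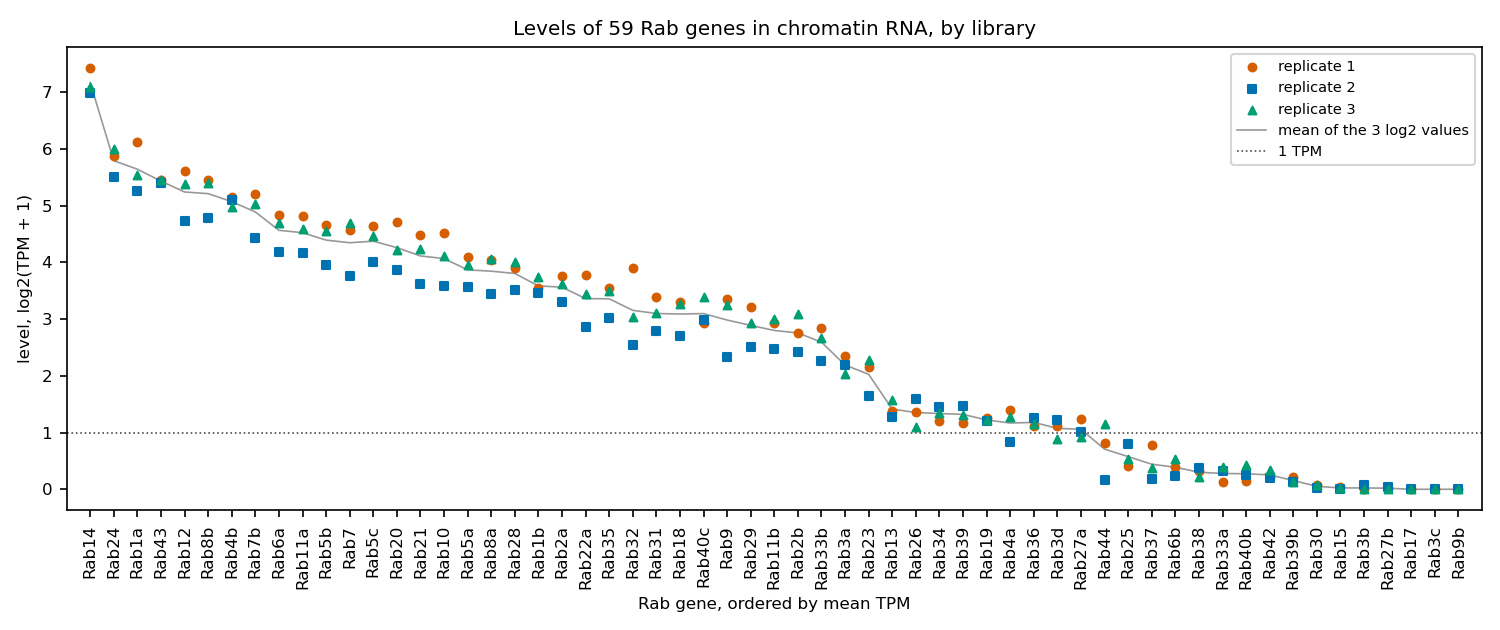
Level of each of the 59 Rab genes as log2(TPM + 1) on the vertical axis, ordered by mean TPM, with a symbol for each of the 3 libraries, a line at the mean of the log2 values and a dotted line at 1 TPM. Rab14 lies above all others in every library, and from Rab24 to Rab23 the genes form a continuous slope on which neighbours mostly overlap.

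Rab14 held 171, 126 and 136 TPM in replicates 1, 2 and 3 (mean 144.4 ± 23.7, SD, n = 3) and thus 19.3 ± 1.9% of all Rab TPM. The 12 highest genes together held 68.7 ± 1.4%. Down the order of the 40 genes, neighbours were in the same order in every library for 8 of 39 pairs, and the ranges did not overlap for 2, Rab14 over Rab24 and Rab23 over Rab13. Elsewhere in the order, the ranges of neighbours over libraries overlapped.

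Of the 9 Rab genes of early endosomes and endocytic sorting, 7 reached 1 TPM in every library, and the median of the 9 was 13.8 TPM. Over all protein-coding genes these were 45.2% and 0.677 TPM, which also stand beside each group below. Rab4b, a gene of fast recycling from early endosomes, was the highest with 34.6, 33.1 and 30.4 TPM (32.7 ± 2.1, SD, n = 3). Its values overlapped those of no other gene of this group. The 3 Rab5 genes, which act in early endosome fusion and on young phagosomes, were all present. Rab5b held 24.3, 14.6 and 22.5 TPM (20.5 ± 5.2). Rab5c held 24.1, 15.1 and 21.1 TPM (20.1 ± 4.6). Rab5a held 16.1, 10.8 and 14.4 TPM (13.8 ± 2.7). Rab5b and Rab5c were in the same order in 2 of 3 libraries. Each exceeded Rab5a in every library, by 0.52 ± 0.11 and 0.51 ± 0.05 in log2(TPM + 1), but the ranges over libraries overlapped. In the second table Rab5c was at 49.7 and Rab5b at 21.3 TPM, and Rab5c was higher in every library. On protein-coding transcripts alone Rab5c, at 20.1 TPM, also exceeded Rab5b, at 8.98 TPM, in every library. Rab5b exceeded Rab5a there in 2 of 3 libraries. Rab21, which acts in integrin endocytosis, stood at 16.9 ± 5.2 TPM, Rab22a at 9.63 ± 3.24 and Rab31, which links the trans-Golgi network to endosomes, at 7.69 ± 1.75. Rab4a was low, with 1.63, 0.79 and 1.41 TPM. Rab17, known from epithelia, had no count in any library.

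The group of late endosomes, lysosomes and phagosome maturation had 9 of 10 genes at 1 TPM or more in every library and a median of 13.0 TPM. Rab24, linked to autophagy, was the highest in the gene table with 57.9, 44.5 and 62.9 TPM (55.1 ± 9.5, SD, n = 3). Rab12, which sends receptors from recycling to degradation, followed with 47.8, 25.6 and 40.9 TPM (38.1 ± 11.4). In TPM both were lowest in replicate 2, while in TMM-scaled CPM, explained below, Rab24 was highest there, by less than counting error. In the second table Rab24 was at 36.7 TPM, below Rab7b at 110.8, Rab12 at 67.9 and Rab7 at 42.4 TPM. Rab7b, which directs TLR4 and TLR9 to degradation and lies on chromosome 1 at 131688695 to 131715439, held 35.9, 20.6 and 31.8 TPM (29.4 ± 7.9). Rab7, the main Rab of late endosomes and phagolysosome fusion, held 22.9, 12.6 and 25.0 TPM (20.2 ± 6.6). Rab7b was above Rab7 in every library, by 0.54 ± 0.18 in log2(TPM + 1), while their ranges overlapped. Rab20, a phagosome maturation gene, held 25.1, 13.5 and 17.6 TPM, and Rab9, which acts in return from late endosomes to the Golgi, held 9.27, 4.05 and 8.56 TPM. Rab34, Rab39 and Rab36 were near the threshold, at 1.53 ± 0.21, 1.51 ± 0.25 and 1.27 ± 0.12 TPM. Rab39 is known from phagosome acidification and Rab34 from lysosome positioning. Rab9b was at 0 in every library.

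Among the 10 genes of recycling and delivery to the surface, 8 were at 1 TPM or more in every library, and the median was 11.5 TPM. This group held the highest gene of the family, Rab14 (ENSMUSG00000026878.17), an endosome and early phagosome gene on chromosome 2 of mm10, 35180205 to 35201120, minus strand. In the gene table Rab8b came next with 42.7, 26.6 and 41.4 TPM (36.9 ± 9.0, SD, n = 3), and its relative Rab8a, known from TLR signalling on macrophage ruffles, held 15.4, 9.89 and 15.6 TPM. Rab8b exceeded Rab8a 2.70-fold on the mean TPM, and their ranges did not overlap. In the second table they were at 32.2 and 22.6 TPM with overlapping ranges, and Rab11a, at 69.9 TPM, was next after Rab14. Rab11a, the main gene of the recycling endosome, held 27.2, 16.9 and 23.1 TPM, and Rab11b held 6.59, 4.58 and 6.99 TPM. Rab11a was thus 3.70-fold higher, without overlap. Rab10, which brings TLR4 to the macrophage surface, held 21.8, 11.0 and 16.3 TPM, and Rab35, of fast recycling, 10.8, 7.12 and 10.3 TPM. Rab25, known from epithelia, had 0.33, 0.73 and 0.44 TPM, and Rab15 was the lowest, with 0.03, 0.00 and 0.02 TPM.

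ER and Golgi genes were mixed: 9 of 12 were at 1 TPM or more in every library, and the median was 6.78 TPM. Rab1a, which acts in transport from ER to Golgi, led with 68.7, 37.4 and 45.7 TPM (50.6 ± 16.2, SD, n = 3). Rab43, another ER and Golgi gene, was steadier with 43.0, 41.1 and 42.7 TPM (42.3 ± 1.0). Rab1a exceeded Rab43 in 2 of 3 libraries. Rab6a, of transport within the Golgi, held 27.5, 17.1 and 24.9 TPM, and its relative Rab6b held 0.32, 0.18 and 0.44 TPM. Rab1b was at 11.1 ± 1.2 and Rab2a at 10.9 ± 1.9 TPM. Rab18, known from lipid droplets, was at 7.67 ± 1.90 and Rab33b, a partner of ATG16L1 in autophagy, at 5.12 ± 1.21. Rab30 was the lowest, with 0.05, 0.01 and 0.05 TPM.

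Genes of secretory granules and lysosome-related organelles were the lowest group. In every library 4 of 12 were at 1 TPM or more, against 45.2% of all protein-coding genes. The median was 0.893 TPM, against 0.677 TPM. Rab32 (ENSMUSG00000019832.5, chromosome 10, 10545002 to 10558265, minus strand), which acts on lysosome-related organelles and in defence against intracellular bacteria, led with 13.9, 4.81 and 7.18 TPM (8.63 ± 4.71, SD, n = 3). Rab29, a partner of the kinase LRRK2, followed with 8.31, 4.71 and 6.66 TPM. Rab38, which shares melanosome functions with Rab32, was at 0.233 ± 0.067 TPM. Of the Rab3 genes, which act in regulated exocytosis, Rab3a held 4.12, 3.55 and 3.09 TPM. Rab3d, at 1.18, 1.33 and 0.84 TPM, and Rab27a, a gene of granule and exosome release, at 1.35, 1.02 and 0.90 TPM, had means just above 1 TPM and were below it in replicate 3 alone. The next gene below a mean of 1 TPM was Rab44, with 0.76, 0.12 and 1.21 TPM on 4, 10 and 6 counts. Rab3b and Rab27b had at most 2 counts in a library, and Rab3c had none. Of the 6 genes placed in no such group, Rab28 and Rab40c led with 13.1 ± 2.4 and 7.65 ± 1.57 TPM, Rab23 was at 3.15 ± 0.92, and Rab39b was lowest at 0.113 ± 0.040 TPM.

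**Figure D2:**
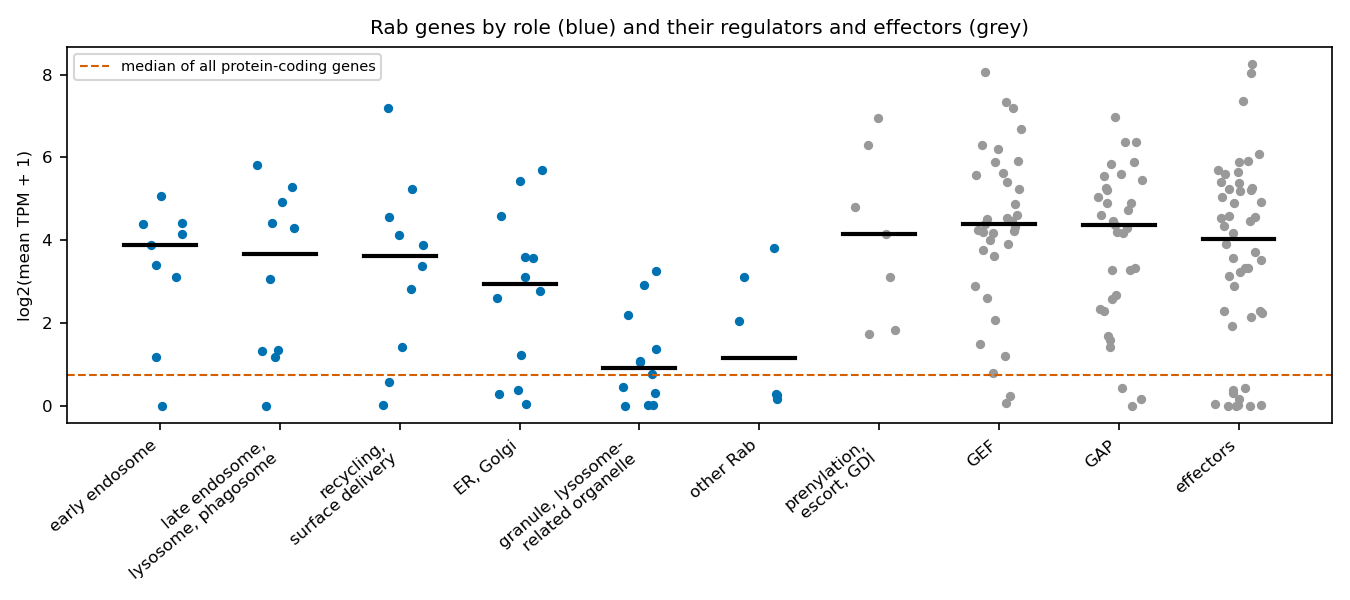
Each point is 1 gene at log2(mean TPM + 1) over the 3 libraries, for the 6 groups of Rab genes (blue) and 4 lists of their regulators and effectors (grey). Black bars are group medians and the dashed line is the median of all protein-coding genes, 0.677 TPM, which the granule group, at 0.893 TPM, lies closest to.

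Close relatives within the family were often unequal. There were 14 subfamilies with at least 2 genes, holding 31 genes and 21 pairs. In 16 pairs the TPM ranges over libraries did not overlap, and no such share was computed for other pairs of genes. Several of the 16 are pairs of Rab3 genes, which use the same genes more than once. Most of these are against Rab3b or Rab3c, at 0.33 and 0 mean counts. Rab1a exceeded Rab1b 4.58-fold on the mean TPM, Rab4b exceeded Rab4a 25.6-fold, Rab2a exceeded Rab2b 1.86-fold, and Rab6a exceeded Rab6b 73.9-fold. Of the 32.7 TPM of Rab4b, 3.70 TPM lay on protein-coding transcripts, where it was still above Rab4a in every library. Rab40c stood 35.9-fold above Rab40b, Rab33b 23.6-fold above Rab33a, and Rab39 13.3-fold above Rab39b, with 6.00, 3.67 and 5.76 mean counts for the lower genes. In the second deposited table, which is described below, 11 of the 16 pairs kept their order without overlap. Rab8b over Rab8a and Rab2a over Rab2b kept their order in every library with overlapping ranges, and Rab3a exceeded Rab3c in 1 of 3 libraries. Rab3d over Rab3c and Rab27a over Rab27b were reversed there in every library.

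Most genes of the machinery that switches Rab proteins were at 1 TPM or more in every library, against 45.2% of all protein-coding genes. The median of all protein-coding genes was 0.677 TPM. All 7 genes of prenylation, escort and GDI were at 1 TPM or more in every library. Gdi2, which extracts Rab proteins from membranes, held 77.2 ± 9.2 TPM, and Rabggtb, a subunit of the Rab prenyltransferase, held 26.8 ± 4.1 TPM. The lowest was Rabif at 2.30 ± 0.59 TPM. Of 35 exchange factor genes, 31 were at 1 TPM or more in every library, and the median was 19.9 TPM. Dennd1a, an exchange factor for Rab35, was the highest with 357, 207 and 240 TPM (268.0 ± 78.5). Madd, which acts on Rab3 and Rab27, held 161.8 ± 24.4 TPM and Gapvd1, which acts on Rab5, 145.3 ± 3.5 TPM. Dennd3, an exchange factor for Rab12, was lowest at 0.053 ± 0.031 TPM, while Rab12 itself was at 38.1 TPM.

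Of 33 GAP genes, 30 reached 1 TPM in every library, with a median of 19.6 TPM. Over all protein-coding genes these were 45.2% and 0.677 TPM, which also stand beside the effectors below. Tbc1d13 was highest at 124.1 ± 14.4 TPM, ahead of Rab3gap2 at 82.0 ± 14.2 and Tbc1d14 at 81.3 ± 4.3 TPM, and Sgsm1 was listed at 0, against 2.46 ± 0.13 TPM in the second table. Of 48 effector genes, 38 reached 1 TPM in every library, with a median of 15.5 TPM. Myo5a, a myosin that binds Rab27 complexes and Rab11, held 288, 269 and 354 TPM, Appl2, a Rab5 effector, held 244, 234 and 310 TPM, and Ehbp1l1, a Rab8 effector, held 159, 168 and 159 TPM. Sytl2 and Sytl5, effectors of Rab27, and Rph3a, an effector of Rab3, were listed at 0 in every library, and in the second table Sytl2 and Rph3a were at 0.549 and 0.335 TPM and Sytl5 at 0.

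The libraries differed in a direction that many Rab genes shared. This was measured in CPM scaled by trimmed mean of M values (TMM, a factor for library composition), for the 35 Rab genes whose mean reached 50 counts. Of these, 21 (60%) were highest in replicate 1, against 32.1% of all protein-coding genes of that depth. In replicate 2, 24 (68.6%) were lowest, against 33.9%. With DESeq2 size factors the counts were the same, against 32.1% and 34.3%. By contrast 6 were highest in replicate 2, where 39.6% of protein-coding genes were highest, 8 were highest in replicate 3, against 28.3%, and 5 were lowest in replicate 1, where 41.2% of protein-coding genes were lowest. The median log2 ratio of replicate 1 over replicate 2 was 0.25 for the Rab genes and -0.04 for all protein-coding genes, with 27 of 35 Rab genes and 45.9% of all genes above 0. For replicate 3 over replicate 2 it was 0.21 against -0.01, and for replicate 1 over replicate 3 it was 0.10 against -0.03. With library size alone as the scale, 27 Rab genes were highest in replicate 1, against 40.1% of all genes, and the ratio over replicate 2 was 0.32 against 0.02. In the second table, 24 of 48 Rab genes were highest in replicate 1, against 31.9%, and 23 were lowest in replicate 2, against 31.7%. On log2(TPM + 1), 25 of 35 Rab genes were highest in replicate 1, against 51.4% of protein-coding genes, and 31 were lowest in replicate 2, against 70.7%. Replicate 2 had the least input RNA and the most counts, and replicate 1 the most input RNA and the largest phiX share. The part of these in the shift was not tested.

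**Figure D3:**
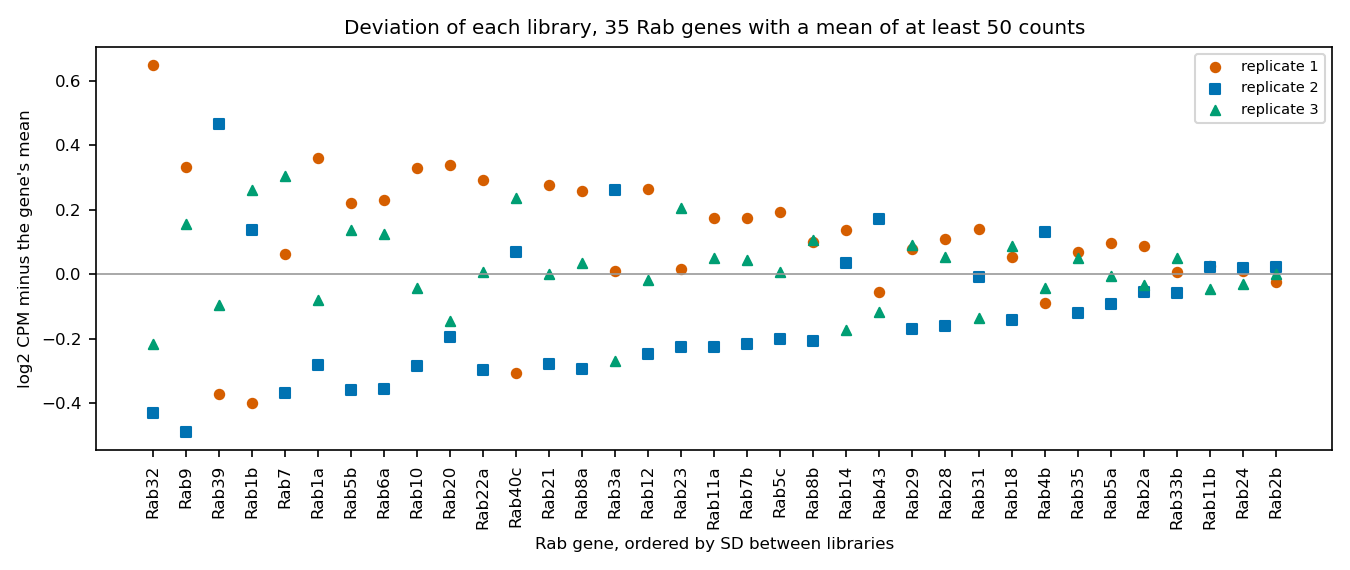
Deviation of each library from the mean log2 CPM of the gene, for the 35 Rab genes whose mean reached 50 counts, ordered by SD between libraries. Replicate 1 (circles) is the highest for 21 genes and replicate 2 (squares) the lowest for 24.

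The share of Rab genes with a wide spread was near that of other genes. The highest library exceeded the lowest by 1.5-fold or more in CPM for 9 of the 35 genes (25.7%), against 24.6% of protein-coding genes of that depth. The 9 genes were Rab32, Rab39, Rab9, Rab7, Rab1b, Rab1a, Rab10, Rab22a and Rab6a. Just outside were Rab5b at 1.498-fold and Rab21 at 1.47-fold, and just inside were Rab6a at 1.503-fold and Rab22a at 1.504-fold. The median SD of log2 CPM was 0.203 for the Rab genes and 0.190 for all. Without replicate 1 or without replicate 2, 2 Rab genes reached 1.5-fold, and 5 did without replicate 3. The shares over all protein-coding genes were not counted with a library left out, so these counts cannot be set against other genes.

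Among these 35 genes, Rab32 had the largest SD of log2 CPM, 0.57, on 295, 235 and 187 expected counts. Its log2 CPM was 4.40, 3.32 and 3.54 in replicates 1, 2 and 3, a 2.12-fold span, with replicate 1 above both others. It was the 1 Rab gene past 2-fold, which is 2.86% of 35, against 6.32% of protein-coding genes. Rab9 came next, with 3.27, 2.45 and 3.09 (SD 0.43), where replicate 2 was low. Rab39 went the other way, with 1.60, 2.44 and 1.88 (SD 0.43), and replicate 2 was its highest library. Rab7 had 5.03, 4.60 and 5.27, highest in replicate 3. The steadiest genes were Rab2b with 3.58, 3.62 and 3.60 (SD 0.02), Rab24 with 5.72, 5.72 and 5.67 (SD 0.03), and Rab11b with 4.64, 4.64 and 4.57 (SD 0.04). These SDs are below what counting alone gives at their depth, 0.10, 0.05 and 0.07.

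Much of the signal of several Rab genes lay on transcripts not annotated as protein-coding. Of the 43 Rab genes at a mean of 1 TPM or more, 14 (32.6%) had under 50% of their TPM on protein-coding transcripts, against 43.1% of all protein-coding genes. The median share on protein-coding transcripts was 81.9% for the Rab genes (79.2, 67.9 and 85.5% in replicates 1, 2 and 3) and 56.5% for all. In chromatin RNA, reads from introns not yet spliced out can be assigned to retained-intron transcripts, and both sources cannot be told apart here. A retained-intron transcript, an annotated RNA that keeps intron sequence, exists for 20 of the 43 genes (46.5%), against 62.3% of all. Within these 20, its median share was 50.6 ± 1.2%, against 46.9% for all such genes, and it reached 50% or more in 10 (50%), against 45.3%. In 13 of the 43 genes (30.2%) all TPM lay on protein-coding transcripts in every library, against 20.9% of all. Among them were Rab7b, Rab7, Rab8b and Rab10. Rab8b and Rab10, and also Rab20, have 1 annotated transcript each, so their share was fixed by the annotation. Rab7 has 7 annotated transcripts, none of them a retained-intron one, and was at 100% in both tables. In how many of the 13 genes the annotation fixes the share was not counted. In the second table the share of Rab7b was 81.0%.

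Rab14, the most abundant gene, was among those with the least on protein-coding transcripts. That share was 13.6, 12.1 and 20.0% in replicates 1, 2 and 3, and its share on retained-intron transcripts was 84.9, 87.5 and 79.8%. The most abundant was a retained-intron transcript of 5003 bases in 1 exon, with 35.6, 22.6 and 25.8 TPM. The coding transcript Rab14-201, of 8 exons, held 11.4, 5.95 and 15.0 TPM. Counted on protein-coding transcripts alone, Rab14 held 21.9 TPM and ranked 5 in the family. Rab43 then led with 41.7 TPM, ahead of Rab8b with 36.9, Rab24 with 30.5 and Rab7b with 29.4. The second table did not keep this order. The share on protein-coding transcripts was 81.0% of 110.8 TPM for Rab7b there, and 66.0% of 45.8 TPM for Rab43. The lowest protein-coding shares were those of Rab23 at 10.6%, Rab4b at 11.6% and Rab14 at 15.3%. Rab4b held 32.7 TPM as a gene and 3.70 TPM on protein-coding transcripts, and retained-intron transcripts held 69.6% of its TPM. Rab1a had no retained-intron transcript, and 40.2% of its TPM lay on protein-coding transcripts, with most of the rest on the noncoding processed transcripts Rab1a-204 and Rab1a-205. Rab8a, Rab6a and Rab12 had 30.8, 38.6 and 38.3% on protein-coding transcripts.

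**Figure D4:**
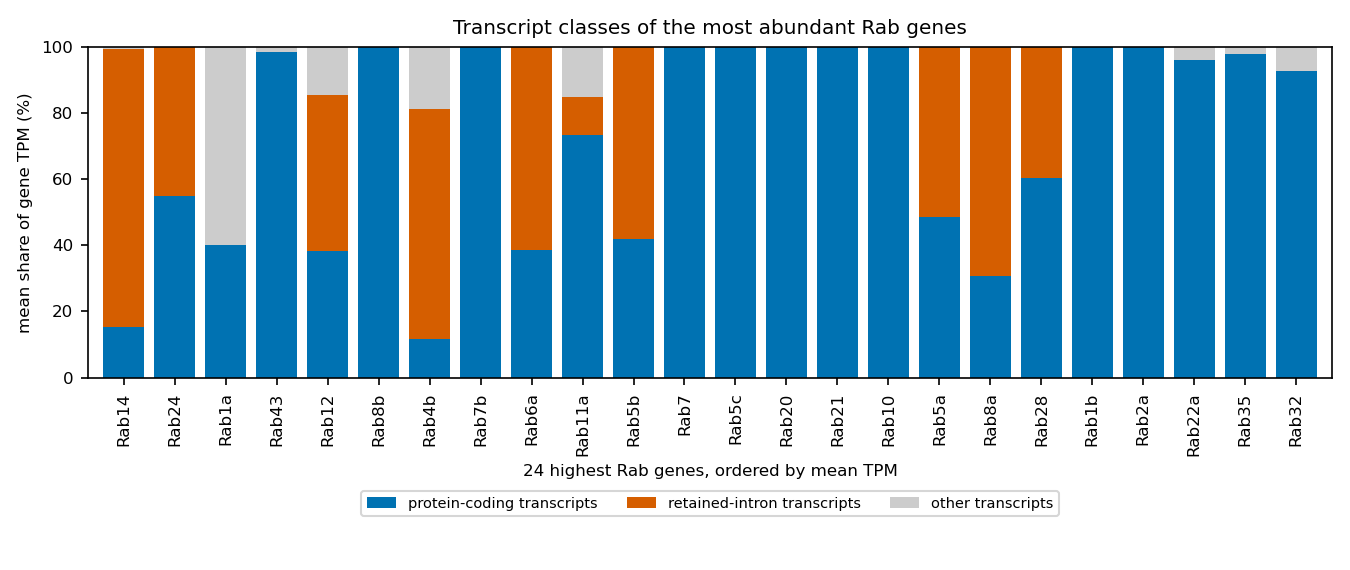
Stacked bars give the mean share of TPM, in percent over 3 libraries, on protein-coding, retained-intron and other transcripts for the 24 Rab genes of highest mean TPM. Rab14 and Rab4b show the smallest protein-coding part, 15.3 and 11.6%, while Rab8b, Rab7b and Rab7 are wholly protein-coding. Rab8b has 1 annotated transcript, Rab7 has no annotated retained-intron transcript, and Rab7b was at 81.0% in the second table. Reads from introns not yet spliced out cannot be told apart from retained-intron transcripts here.

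Some genes share exons with neighbours, and whether counting used strand is not stated. Prelid1, on the opposite strand and at 10.2 TPM, covers 62.4% of the exon bases of Rab24. Gm45140, on the same strand and at 3.64 TPM, covers 75.4% of those of Rab43, and Gm21983, at 0 TPM, 65.0% of those of Rab4b. E230013L22Rik, on the opposite strand, covers 25.6% of Rab20 and held 18.2 TPM, close to Rab20 itself. Rab2b shares 59.3% of its exon bases with Gm43766, at 0.923 TPM, and 4.68% with Tox4, at 31.45 TPM, both on the opposite strand. Levels of these genes are therefore uncertain by the share of reads that could belong to either partner.

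Each library also came with a second transcript table, which gave higher values for several Rab genes. Summed by gene, it was at least 2-fold above the gene table for 17 of 49 Rab genes at 1 TPM or more in either (34.7%), against 34.1% of protein-coding genes. The reverse was found for no Rab gene, against 0.283%. Rab14 was at 138 TPM there against 144.4. Rab7b, in contrast, was at 117, 96.3 and 119 TPM in replicates 1, 2 and 3, 3.77-fold its gene-table level, with 60.7 TPM on Rab7b-205, a coding transcript of 497 bases that had 0.70 TPM in the first transcript table. Rab11a was 3.12-fold higher, Rab9 3.86-fold, Rab18 3.60-fold, Rab23 2.96-fold, Rab11b 2.49-fold, Rab5c 2.47-fold, Rab7 2.10-fold and Rab4b 2.06-fold. Rab34 was 10.6-fold higher, at 17.8, 15.6 and 15.5 TPM, of which 12.8 TPM lay on Rab34-207, a retained-intron transcript of 352 bases. Rab3d was 2.62-fold and Rab37 3.77-fold higher. Rab3b, at 0.33 mean counts in the gene table, was at 2.15 TPM.

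Of 10 Rab genes with a mean under 5 counts in the gene table, 4 (40%) had over 100 in the second, against 12.4% of such protein-coding genes. Rab3c, listed at 0 in the gene table, had 526, 1026 and 720 estimated counts in the second. Rab9b, also at 0, had 102, 236 and 163. Rab30 had 194, 606 and 305, and Rab27b had 297, 423 and 311, with a mean of 4.33 and 1.00 counts in the gene table. The transcripts of these 4 genes hold stretches of 31 bases that recur in transcripts of 10 or more other genes: 201 in Rab3c-201, 49 in Rab30-201, 41 in Rab27b-203 and 23 in Rab9b-201. Such stretches were also in transcripts of Rab14, with 109 in the one of 5003 bases, and the tables gave close levels for that gene. In all, 18 of the 59 Rab genes have a transcript with such stretches, and the share over all genes was not counted. Their part in the difference was not tested. Read by the second table, 49 Rab genes and not 40 would be at or above 1 TPM in all libraries. Of all 22028 protein-coding genes, 12381 were so in the second table and 9949 in the gene table, so the rise was not particular to Rab genes. The 9 added were Rab4a, Rab3d, Rab27a, Rab37, Rab30, Rab3b, Rab27b, Rab3c and Rab9b, of which 6 are genes of granules and lysosome-related organelles. The median of the granule group was 2.73 TPM there, against 2.36 TPM for all protein-coding genes, and it was the lowest of the 6 groups in both tables.

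**Figure D5:**
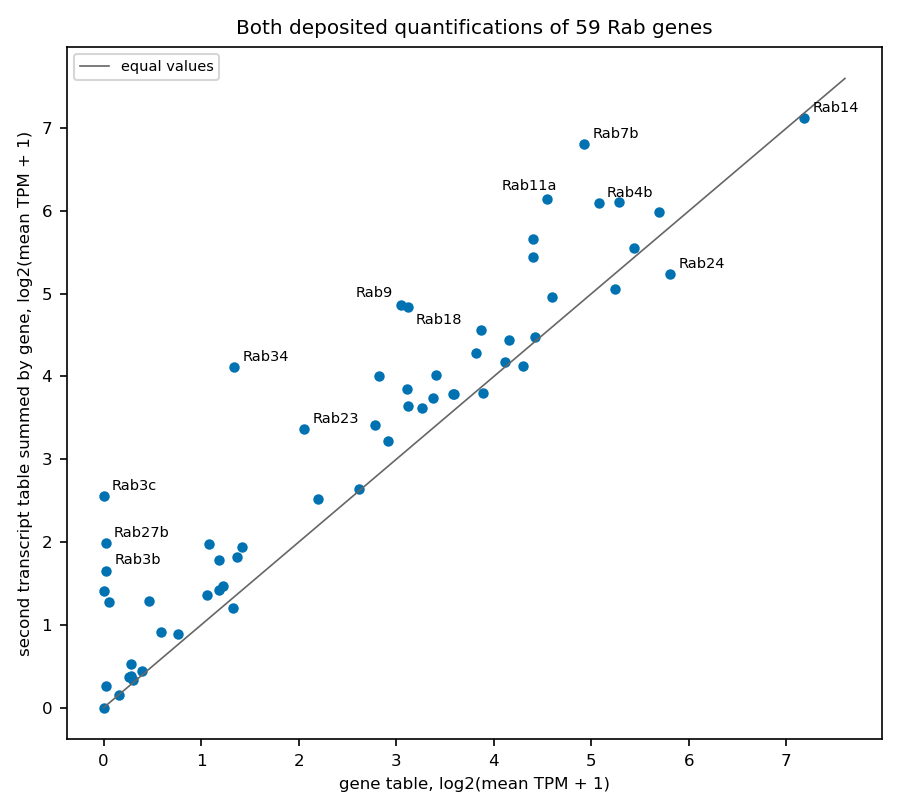
Each point is 1 of the 59 Rab genes, with log2(mean TPM + 1) in the gene table on the horizontal axis and in the second transcript table, summed by gene, on the vertical axis. Rab7b, Rab11a and Rab34 lie well above the line of equal values, Rab14 lies on it, and Rab3c and Rab27b stand near 0 on the horizontal axis and at 4.86 and 2.96 TPM on the vertical axis.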

How the data were processed

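The series holds 3 libraries of 1 group, and replicate numbers come from the labels. The genome build is mm10 and the gene models are release M21, per the file headers and labels. For the aligner and quantification programs, names and versions are not given in the sources used. The authors' gene table and first transcript table give expected counts, which are estimates, with TPM and FPKM, per the file headers. The second deposited transcript table gives estimated counts and TPM, which were summed by gene. TPM were used as deposited, with phiX within the scale. The second table lacked 86 genes, entered at 0.

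Expected counts were rounded, scaled by TMM over genes in edgeR 4.0.16 and turned into log2 CPM with a prior count of 2, for genes averaging 50 counts or more. DESeq2 1.42.0 size factors were an alternative. The edgeR dispersion without a design gave a coefficient of variation of 0.199 over 11632 genes. R was 4.3.3 and Python 3.11.15, and scripts were tested on simulated data. Calls are folds of 1.5 or 2 between libraries, or levels of 1 TPM; with 1 group, no test between conditions was possible, and differences between genes within libraries are given with their SD and no test. Floors reflect counting error alone, since reads are not independent molecules.

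Members, lists and the rules for named genes were chosen with earlier results of these data known. The naming rule took the 12 highest genes, the 3 most and 3 least variable, the 2 above and 2 below 1 TPM, the 2 highest and the lowest of each role, the 3 highest and the lowest of each regulator list, genes 2-fold apart between tables, and extremes of the protein-coding share. Rab41, listed by role, was not found. The values of 1 gene of the regulator lists are not reported here. Other Rab genes, and neighbours that share exons, were named after their values were seen. Transcript classes come from the annotation. Each gene's 31-base stretches were looked up in all annotated transcripts. The RefSeq promoter table is of build GRCm38.p6, and 11 genes had no entry. No column of another sample was present. Alternatives were the second table, other thresholds, scalings, pseudocounts and each library left out.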

Additional observations from a re-analysis of the deposited data

How the results depend on the processing

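The count of Rab genes at 1 TPM or more in every library, 40, stayed within 34 to 49 under every alternative run. The 49 came from the second table, where all protein-coding genes at that level also rose, from 9949 to 12381. The median of log2(TPM + 1) of the Rab genes minus that of all protein-coding genes was 2.08, against 1.83 in the second table, 3.06 with a pseudocount of 0.1 and 2.72 from log2(CPM + 1), and it was -0.19 among genes at a mean of 1 TPM or more. Leaving out each library gave 2.01 to 2.18. The median SD of log2 CPM minus that of all genes was 0.014, against 0.082 with no filter on low counts and 0.103 on log2(TPM + 1). Leaving out each library gave -0.041 (without replicate 2) to 0.024. The 9 genes past 1.5-fold were 14 with a mean of at least 10 counts and 1 at 2-fold, and leaving out each library, which leaves 2 libraries to compare, gave 2 to 5. For these alternatives other than 2-fold, the shares over all protein-coding genes were not counted. The median protein-coding share of 81.9% was 62.1% in the second table and 80.4 to 84.8% with a library left out. The retained-intron share of 50.6% was 45.2% in the second table, 49.2% at 5 TPM or more and 51.3 to 52.2% with a library left out. Apart from the alternatives that drop genes or libraries, the cause was not tested. Of 35 genes, 21 to 27 were highest in replicate 1 and 24 to 31 lowest in replicate 2, and in the second table these were 24 and 23 of 48, so that the share lowest in replicate 2 was 68.6% at first, 88.6% on log2(TPM + 1) and 47.9% there. Mean TPM moved by more than the SD between libraries in the second table for 41 of 59 genes. The share over all protein-coding genes was not counted. Leaving out 1 of 3 libraries cannot move a mean by that much, so it gives no check of these levels. No paired analysis was possible because the series holds 1 group. At these depths, the order of genes under 20 mean counts is not resolved, and the levels of Rab3c, Rab9b, Rab30 and Rab27b depend on the table.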
